A study of Mus musculus with 12 samples.

Results

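The 7 genes Cp, Tmem176a, Tmem176b, S100a4, Lgals2, B3galnt1 and Hmga2 were followed through a mouse adipocyte experiment in which the steroid receptor RNA activator (SRA) was raised in 1 cell line and depleted in another. They were chosen by their values in these same arrays, where their signal was lower with SRA overexpression and higher with SRA knockdown. Those 2 differences are therefore given as a description, with no p-value for any member, and nothing is supported with them. Every probe set annotated to 1 of the 7 symbols alone was taken, which gave 20 of the 45101 probe sets on the array, for 7 of the 18194 genes with such a probe set. Cp had 8 probe sets, Hmga2 had 4, Tmem176a had 3, Lgals2 had 2, and Tmem176b, S100a4 and B3galnt1 had 1 each. In total 19 of the 20 passed the study's filter on probe sets that hardly varied (variance above 0.05 over the 12 arrays), and 1 probe set of Lgals2 did not.

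The cells were ST2, a mouse bone marrow stromal line that can become adipocytes (labelled strain BC8), and 3T3-L1, a preadipocyte line from Swiss albino mouse tissue. ST2 cells carried retroviral pMSCV-SRA, which expresses a human SRA cDNA, or empty pMSCV (control), and were harvested on day 4 of differentiation. 3T3-L1 cells carried pSuperior-shSRA-2, a short hairpin against mouse SRA (shSRA), or the pSuperior control (shControl), and were harvested on day 8. The sources differ on that control, which is an empty vector by the sample titles and a control hairpin by the study's text, so what shSRA was measured against is not settled. All groups were drug-selected pools of infected cells and received the same cocktail of 0.5 mM isobutylmethylxanthine, 1 µM dexamethasone, 0.167 µM insulin and 5 µM troglitazone, with 3 arrays in each of the 4 groups. Line, mouse strain, day and vector changed together, so none of them can be told apart in a comparison of ST2 with 3T3-L1.

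SRA is an RNA that acts as a coactivator of nuclear receptors, among them PPARγ, the master regulator of adipocyte formation. The 7 genes do not form 1 pathway. Cp encodes ceruloplasmin, a copper-bearing ferroxidase that oxidizes iron as it leaves cells. Tmem176a and Tmem176b encode related four-span membrane proteins that are known mostly from myeloid cells. S100a4 encodes an EF-hand calcium-binding protein tied to cell motility and long used as a fibroblast marker, and Lgals2 encodes galectin-2, a lectin that binds β-galactosides. B3galnt1 encodes the transferase that completes globoside, a neutral glycolipid of the cell surface. Hmga2 encodes an AT-hook chromatin protein of embryonic and undifferentiated mesenchymal cells, and mice without it are small and lean.

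All values are log2 expression values made by robust multi-array average (RMA), which are on 1 scale across arrays for a probe set but not between probe sets. The Sra1 probe set, which reads the mouse transcript, checked the knockdown. It read 9.46, 9.20 and 9.62 on the shSRA arrays, against 11.86, 11.67 and 11.84 on the shControl arrays, a fall of 2.36 (moderated limma test over 19068 probe sets, adjusted p = 5.58e-07). In ST2 the same probe set read 11.13, 11.13 and 11.44 with SRA and 11.14, 10.67 and 11.24 in controls, which did not pass (adjusted p = 0.484), and the transgene there was a human cDNA. The study states, without showing the data, that this retrovirus raised SRA RNA many-fold in ST2 cells. The adipocyte genes Adipoq and Fabp4 were near the top of the scale in all groups, with Adipoq at 14.55 ± 0.07 in SRA ST2 cells, 14.44 ± 0.15 in control ST2 cells, 14.79 ± 0.02 in shSRA cells and 14.75 ± 0.08 in shControl cells (SD, n = 3 each). Replicate 2 of the ST2 controls stood apart from the other arrays: over 14314 bright probe sets its median deviation from its group was -0.43, and over the 20 member probe sets it was -0.40. The members' differences with SRA are therefore also given without it.

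The 7 genes lie on 4 chromosomes, with Cp (chr3:19956933-20009750), B3galnt1 (chr3:69573919-69598960) and S100a4 (chr3:90603770-90606045) on chromosome 3, Tmem176a (chr6:48841483-48845364) and Tmem176b (chr6:48833811-48845948) on chromosome 6, Hmga2 (chr10:120361268-120476469) on chromosome 10 and Lgals2 (chr15:78850860-78855529) on chromosome 15 (RefSeq, GRCm38.p6). Tmem176a and Tmem176b are on opposite strands, and the whole Tmem176a span of 3882 bases lies inside that of Tmem176b. The nearest annotated start sites of the pair, 48841483 for Tmem176a and 48841374 for Tmem176b, point away from each other and are 109 bases apart. RefSeq promoter windows (250 bases before to 50 after a start site) were given for all 7 genes, 11 windows in all. They were searched on both strands for 8 motifs. These were the nuclear receptor hexamer AGGTCA, the PPAR response element made of that hexamer repeated with 1 base between (so that each such element also holds the hexamer), the C/EBP site TTGCNNAA, the CCAAT box spelled as named, the GC box GGGCGG, the TATA box TATAAA, the CRE core TGACGT and the interferon-stimulated element (GAAA repeated with 2 bases between). No member window held the PPAR element, which was in 0.0396% of all 32851 windows, the interferon-stimulated element (3.44%) or the CRE core (7.51%). The 250 bases before the start site are shown for S100a4 and Cp, the members with a TATA box, and for Tmem176a, whose upstream region runs into that of its neighbour, with the motif letters in capitals.

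S100a4, chr3:90603520-90603769, plus strand: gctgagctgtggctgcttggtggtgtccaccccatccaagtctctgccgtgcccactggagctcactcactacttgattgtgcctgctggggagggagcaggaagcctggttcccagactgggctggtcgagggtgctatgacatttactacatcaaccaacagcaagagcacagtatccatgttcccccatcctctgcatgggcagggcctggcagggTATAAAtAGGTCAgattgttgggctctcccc
Cp, chr3:19956999-19957248, plus strand: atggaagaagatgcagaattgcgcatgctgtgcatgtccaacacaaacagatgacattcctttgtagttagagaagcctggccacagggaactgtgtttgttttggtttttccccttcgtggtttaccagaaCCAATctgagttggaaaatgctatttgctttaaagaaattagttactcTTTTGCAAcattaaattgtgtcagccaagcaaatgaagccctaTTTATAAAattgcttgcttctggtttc
Tmem176a, chr6:48841233-48841482, plus strand: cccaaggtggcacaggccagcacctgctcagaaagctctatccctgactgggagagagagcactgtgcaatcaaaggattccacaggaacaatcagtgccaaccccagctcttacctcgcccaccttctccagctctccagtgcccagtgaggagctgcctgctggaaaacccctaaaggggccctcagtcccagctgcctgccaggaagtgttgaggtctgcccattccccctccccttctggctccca

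In S100a4 the capitals mark a TATA box with a nuclear receptor hexamer 1 base after it. In Cp they mark, in order, a CCAAT box, a C/EBP match on the opposite strand, and a pair of TATA matches on both strands that overlap. TATAAA was in 13.6% of all windows, AGGTCA in 16.3%, TTGCNNAA in 10.8% and CCAAT in 37.4%. The Tmem176a stretch held no match, and neither did the windows of Tmem176b and Lgals2. The windows of B3galnt1 and Hmga2 each held 1 GC box, which was in 35.7% of all windows. A match describes these letters alone.

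S100a4 had the largest change in both lines among the 3 genes with 1 probe set. Its probe set 1424542_at read 11.41, 10.89 and 11.17 in SRA ST2 cells, against 13.06, 12.19 and 12.56 in control ST2 cells. In 3T3-L1 cells it read 10.61, 11.01 and 10.62 with shSRA, against 9.31, 10.54 and 9.95 with shControl. In neither line did the 2 groups overlap, although shControl replicate 2 came close to the lowest shSRA array. The difference was -1.45 with SRA, or 2.73-fold lower, and -1.65 without ST2 control replicate 2. With shSRA it was 0.81, or 1.76-fold higher, and leaving out single arrays moved it between 0.50 and 1.11. The 3 shControl arrays spread more (SD 0.61) than those of any other group for this gene.

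Tmem176b, on 1418004_a_at, read 10.21, 9.31 and 10.01 in SRA ST2 cells, against 11.26, 10.75 and 11.28 in control ST2 cells. In 3T3-L1 it read 11.005, 11.141 and 11.066 with shSRA, against 10.08, 10.71 and 10.49 with shControl. The shSRA arrays lay close together (SD 0.07) and above all 3 shControl arrays, while SRA replicate 2 was the lowest of all 12 arrays. The differences were -1.25 with SRA (2.38-fold lower, -1.43 without ST2 control replicate 2) and 0.64 with shSRA (1.56-fold higher).

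Its neighbour Tmem176a showed the same order of groups on all 3 of its probe sets. On 1425603_at the SRA arrays read 8.12, 7.79 and 8.02, against 9.80, 8.97 and 9.82 in ST2 controls. With shSRA this probe set read 8.03, 8.41 and 8.61, against 6.89, 7.82 and 7.36 with shControl. The groups did not overlap in either line, and the changes of -1.55 (2.94-fold lower) and 0.99 (1.99-fold higher) were the largest of any member probe set in both comparisons. On 1423909_at the SRA arrays read 9.87, 9.39 and 9.51, against 11.03, 10.64 and 11.01 in controls, and the shSRA arrays read 9.83, 9.97 and 10.09, against 8.95, 9.60 and 9.32 with shControl. Its differences were -1.31 and 0.67. The third probe set, 1441811_x_at, some of whose probes resemble other sequences, gave smaller differences of -0.80 and 0.46, again with no overlap. Without ST2 control replicate 2 the 3 SRA differences ran between -0.92 and -1.83.

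The Tmem176a and Tmem176b spans overlap on opposite strands, and whether a probe of one gene also picks up RNA of the other was not tested here.

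Cp had 8 probe sets, and 6 of them showed the same pattern at much the same size. The clearest, 1448734_at, read 7.62, 7.45 and 8.10 in SRA ST2 cells, against 8.79, 8.57 and 8.79 in control ST2 cells. It read 11.19, 10.67 and 11.30 in shSRA cells, against 10.35, 9.71 and 10.24 in shControl cells. These groups were separate in both lines, with differences of -0.99 (1.99-fold lower) and 0.95 (1.94-fold higher). On 1417494_a_at, whose probes are shared by alternative Cp transcripts, the SRA arrays averaged 8.91 ± 0.20 against 9.72 ± 0.31 in ST2 controls, and the shSRA arrays averaged 12.02 ± 0.27 against 11.18 ± 0.23 with shControl (SD, n = 3 each). The probe sets 1417495_x_at, 1417496_at, 1448735_at and 1455393_at had SRA differences between -0.71 and -0.88 and shSRA differences between 0.63 and 0.98, with no overlap of groups in either line. Without ST2 control replicate 2 the 6 SRA differences ran between -0.79 and -1.07.

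The other 2 probe sets of Cp did not show it in full. On 1441326_at the SRA arrays read 5.70, 5.26 and 6.33 and the ST2 controls 6.27, 5.42 and 6.82, which overlap, with a difference of -0.41. This difference ran between -0.78 and -0.08 when single arrays were left out, the first of these without ST2 control replicate 2. In 3T3-L1 it read 8.42, 7.71 and 7.78 with shSRA, against 7.68, 6.77 and 7.46 with shControl, which do not overlap (difference 0.67). The probe set 1417497_at was flat in ST2, at 6.24, 6.51 and 6.37 with SRA and 6.47, 6.20 and 6.49 in controls (difference -0.01, or -0.11 without ST2 control replicate 2). In 3T3-L1 it was at 6.99, 7.18 and 7.24 with shSRA and 6.76, 6.88 and 7.04 with shControl, which overlap (difference 0.24).

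B3galnt1, on 1418736_at, read 4.22, 4.14 and 4.45 in SRA ST2 cells, against 5.33, 4.57 and 5.02 in control ST2 cells. In 3T3-L1 it read 9.33, 9.28 and 9.69 with shSRA, against 8.81, 8.71 and 8.79 with shControl. The groups were separate in both lines, but in ST2 the gap between SRA replicate 3 and control replicate 2 was small. The differences were -0.70 with SRA (-0.90 without ST2 control replicate 2) and 0.66 with shSRA (1.58-fold higher). RMA values carry no call of whether a probe set is above background, so whether the ST2 signal of this gene is specific was not tested.

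Lgals2 had a pair of probe sets that went different ways. On 1417079_s_at the SRA arrays read 6.55, 6.40 and 6.51, against 7.03, 7.29 and 7.25 in ST2 controls, and the shSRA arrays read 6.94, 6.58 and 6.83, against 6.16, 6.08 and 6.21 with shControl. These groups did not overlap, and the differences were -0.70 (1.62-fold lower, -0.65 without ST2 control replicate 2) and 0.63 (1.55-fold higher). On 1417078_at, the probe set that did not pass the variance filter, the SRA arrays averaged 7.15 ± 0.07, against 7.10 ± 0.10 in ST2 controls. With shSRA it averaged 6.99 ± 0.12, against 7.08 ± 0.14 with shControl (SD, n = 3 each). All 12 values of this probe set lay within a narrow band, and its groups overlapped in both lines. The differences were 0.05 with SRA (0.06 without ST2 control replicate 2) and -0.09 with shSRA. The suffix _s_at marks probes that can be shared by transcripts of more than 1 gene, so for Lgals2 the opposite change rested on 1 such probe set.

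Hmga2 was lower with SRA on all 4 probe sets, but the change with shSRA rested on 1 of them. On 1450780_s_at the SRA arrays read 10.74, 10.77 and 11.18, against 12.28, 11.79 and 12.12 in ST2 controls. In 3T3-L1 it read 7.29, 7.72 and 7.25 with shSRA, against 6.92, 6.83 and 6.86 with shControl, which do not overlap. The differences were -1.17 with SRA (2.25-fold lower) and 0.55 with shSRA. As for Lgals2, the suffix _s_at of this probe set marks probes that can be shared by transcripts of more than 1 gene. Whether its 3T3-L1 signal is above background was not tested, so no fold is given there. On 1450781_at the SRA arrays read 10.67, 10.73 and 11.19, against 12.47, 11.94 and 12.43 in ST2 controls, a difference of -1.41 or 2.66-fold lower. Its shSRA arrays read 6.32, 7.26 and 5.96, against 6.41, 6.13 and 6.24 with shControl, so shSRA replicate 2 was above the controls and replicate 3 below them. That difference of 0.25 ran between -0.12 and 0.53 when single arrays were left out. On 1422851_at the differences were -1.24 with SRA and 0.09 with shSRA, and on 1446196_at they were -0.93 and -0.07. Both overlapped between shSRA and shControl, and 1446196_at also overlapped between SRA and control. On all 4 probe sets shSRA replicate 2 was the highest of the shSRA arrays. Without ST2 control replicate 2 the 4 SRA differences ran between -1.16 and -1.58.

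**Figure D1:**
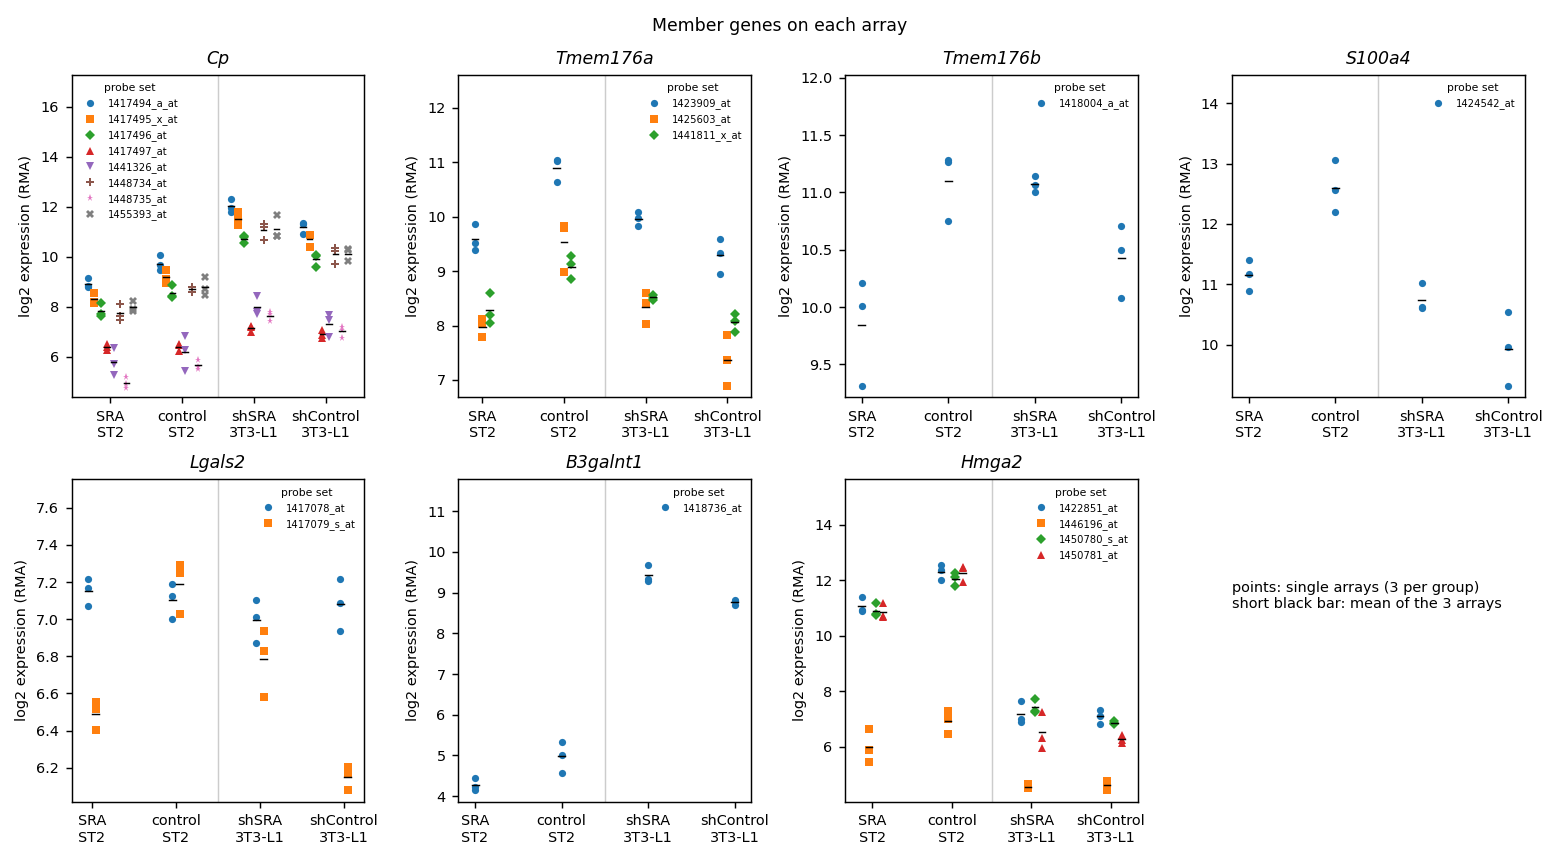
Log2 expression (RMA) of the 20 member probe sets on each of the 12 arrays, 1 panel per gene, with points for single arrays, symbols for probe sets and a short black bar for the mean of 3 arrays. In ST2 the SRA points lie below the control points for 16 probe sets, and in 3T3-L1 the shSRA points lie above the shControl points for 15.

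Counted over probe sets, the SRA arrays lay below all ST2 control arrays for 16 of 20, where 4.94% of all 45101 probe sets did so. The shSRA arrays lay above all shControl arrays for 15 of 20, where 4.18% of all probe sets did so. Both held for 14 of 20 (0.246% of all probe sets), which include at least 1 probe set of every member. The sign alone was negative with SRA for 19 and positive with shSRA for 18. In 5 of the 7 genes (Cp, Tmem176a, Tmem176b, S100a4 and B3galnt1) all probe sets had both signs. These shares follow from how the genes were picked and nothing is read from them.

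The counts of calls among the members follow from how the genes were picked, and nothing is read from them. In the moderated limma test over 19068 probe sets, 17 of the 20 probe sets were called lower with SRA, where 5.65% of tested probe sets were. With shSRA 0 of 20 were called higher, where 0.0315% of tested probe sets were. The arrays of 3T3-L1 with the same replicate number deviated together, a pairing that this test leaves out. With that number as a block in both lines 12 of 20 were called higher with shSRA (0.325% of tested probe sets) and 17 called lower with SRA (8.63%). Under a nested F classification over both comparisons, 13 were called higher with shSRA (0.241%) and 16 lower with SRA (4.21%). The median difference over the 20 probe sets was -0.85 with SRA and 0.65 with shSRA, beside 0.07 and 0.02 over all tested probe sets. Without ST2 control replicate 2 the median with SRA was -0.98.

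**Figure D2:**
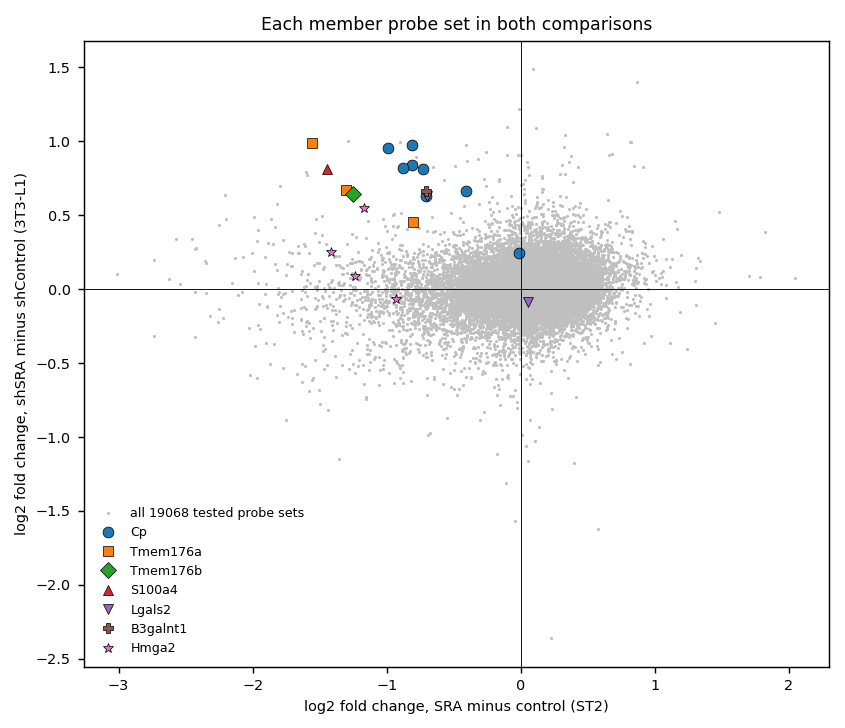
Log2 fold change with SRA in ST2 (x axis) against that with shSRA in 3T3-L1 (y axis), with grey dots for all 19068 tested probe sets and coloured symbols for the 20 member probe sets. Most members sit at the upper left, the 1417497_at probe set of Cp and the 1417078_at probe set of Lgals2 sit in the main cloud, and the other Lgals2 symbol lies under that of B3galnt1.

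Set side by side by number, shSRA minus shControl was above 0 in all 3 pairs for 16 of the 20 probe sets. The exceptions were 3 of the 4 Hmga2 probe sets and the flat Lgals2 probe set. The pairs did not all contribute alike. For S100a4 they gave 1.30, 0.48 and 0.66, for Tmem176b 0.92, 0.43 and 0.57, and for Cp on 1448734_at 0.84, 0.96 and 1.06. Pair 1 was thus the largest for S100a4 and Tmem176b, and pair 2 was the smallest for both. For Hmga2 on 1450780_s_at the pairs gave 0.37, 0.90 and 0.38, with pair 2 the largest.

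**Figure D3:**
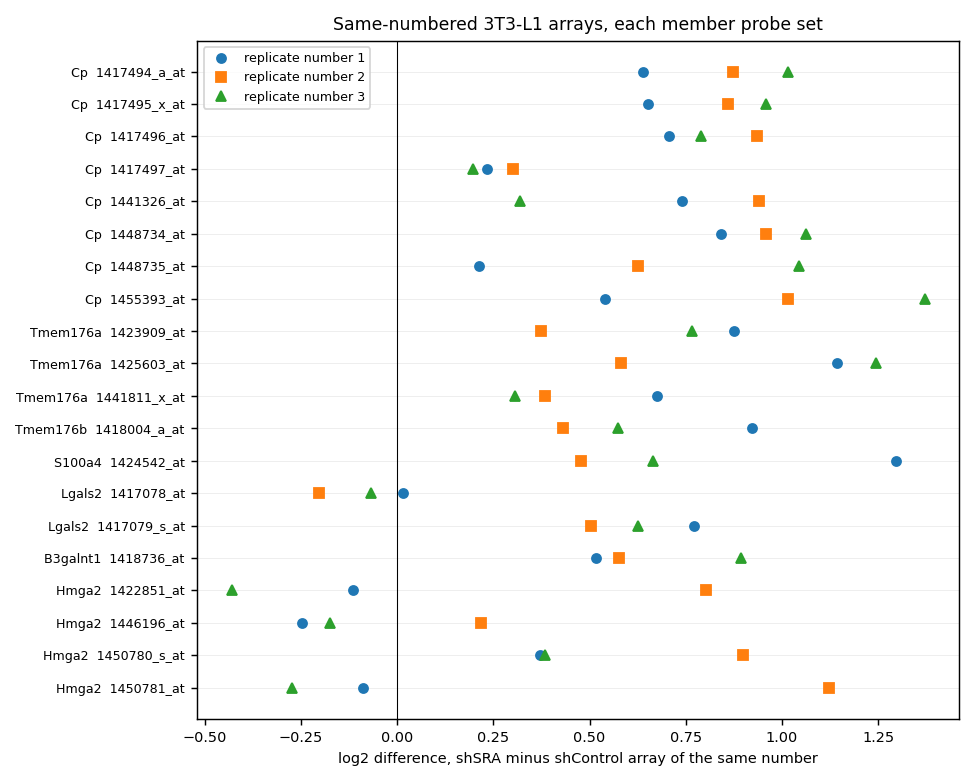
Log2 difference between the shSRA and shControl arrays of the same replicate number (x axis) for each member probe set, with 1 symbol per number. For 16 of the 20 probe sets all 3 symbols lie right of 0, and 3 probe sets of Hmga2 and 1417078_at of Lgals2 have symbols on both sides.

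Probe sets of 1 gene were compared by how far their difference varied over the 12 arrays, a measure in which 0 means that they moved as 1. Arrays of both lines enter it, so it holds the line difference as well as the changes with SRA and shSRA. Among the 8 Cp probe sets, 1417494_a_at and 1417495_x_at kept their difference within a range of 0.20, and 1417494_a_at and 1455393_at within 0.49. The flat probe set 1417497_at departed from all others, with ranges between 2.05 and 3.26, and 1441326_at followed with 1.24 to 1.98 against the remaining ones. For Tmem176a the ranges were 0.82 to 1.68. For Hmga2, 1422851_at and 1450780_s_at stayed within 0.81, whereas 1446196_at departed by 3.16 to 4.03. Its ST2 minus 3T3-L1 difference was 1.86, against 4.33 to 5.18 on the others, while its SRA difference was -0.93, against -1.17 to -1.41. The Lgals2 pair had a range of 1.31.

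The level of each gene in the 2 lines is a comparison that the choice of members did not use, since both groups of a line enter it with equal weight. It separated the members sharply. Hmga2 was higher in ST2 and B3galnt1 and Cp were higher in 3T3-L1, S100a4 and Tmem176a were moderately higher in ST2, and Lgals2 and Tmem176b were close. In the moderated limma test 18 of the 20 probe sets passed, 9 higher and 9 lower in ST2, where 75.2% of all tested probe sets passed (33.4% higher and 41.8% lower). Most probe sets on the array thus differed between the lines, and the members' count is read as no more than that.

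Hmga2 on 1450781_at averaged 11.57 over the 6 ST2 arrays and 6.39 over the 6 3T3-L1 arrays, a difference of 5.18 ± 0.18 (SE) on the log2 scale, with adjusted p = 1.20e-15. Its other probe sets gave 4.56, 4.33 and 1.86, all with adjusted p at or below 8.79e-09 and with every ST2 array above every 3T3-L1 array. B3galnt1 averaged 4.62 in ST2 and 9.10 in 3T3-L1, a difference of -4.48 ± 0.13 (adjusted p = 1.27e-16). No fold is given for these 2, since whether the lower line's signal is above background was not tested. For both genes these probe sets differed more between the lines than between the groups of either line.

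Cp was lower in ST2 on all 8 probe sets, with differences of -0.63 to -2.38 and adjusted p at or below 5.25e-05. On 1448734_at it averaged 8.22 in ST2 and 10.58 in 3T3-L1 (5.11-fold lower in ST2, adjusted p = 2.86e-11). For 7 of the 8 every ST2 array lay below every 3T3-L1 array, and 1441326_at overlapped. Over all members 4 probe sets lay wholly above and 8 wholly below in ST2, where 21.9% of all probe sets were separate in either direction. S100a4 averaged 11.88 in ST2 and 10.34 in 3T3-L1 (difference 1.54 ± 0.18, adjusted p = 3.65e-07), but the lines overlapped, since the lowest SRA array (10.89) lay below the highest shSRA array (11.01).

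Tmem176a was higher in ST2 by 0.39 to 0.90 on its 3 probe sets (adjusted p between 0.000110 and 0.00748), with overlapping arrays. Lgals2 on 1417079_s_at was higher in ST2 by 0.37 ± 0.11 (adjusted p = 0.00484), also with overlap. Tmem176b averaged 10.47 in ST2 and 10.75 in 3T3-L1, a difference of -0.28 ± 0.16 that did not pass (adjusted p = 0.108). It passed without ST2 SRA replicate 1 (-0.37, adjusted p = 0.0442) and without shControl replicate 1 (-0.37, adjusted p = 0.0427).

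The baseline of each line, that is the control arrays alone, gave a different picture for the genes with close levels. These arrays are also part of the comparisons that picked the genes, so the values are a description. Tmem176b was at 11.10 ± 0.30 in ST2 controls and 10.43 ± 0.32 in shControl cells, a difference of 0.67 in the opposite direction to the average of both groups. S100a4 was 2.67 higher in ST2 controls than in shControl cells, Tmem176a 1.02 to 2.17 higher, Lgals2 on 1417079_s_at 1.04 higher and Hmga2 2.30 to 6.02 higher. For Cp and B3galnt1 it was the other way, with ST2 control minus shControl differences of -0.51 to -1.53 for Cp and -3.80 for B3galnt1.

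In SRA ST2 cells the level of Tmem176a came within 0.62 of shControl cells on all 3 probe sets (0.22, 0.30 and 0.62 above), and Lgals2 on 1417079_s_at was 0.34 above. S100a4 was still 1.22 above shControl cells, and Hmga2 1.36 to 4.60 above. The SRA minus shControl difference was -0.58 for Tmem176b, -4.50 for B3galnt1 and -0.52 to -2.41 for Cp.

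**Figure D4:**
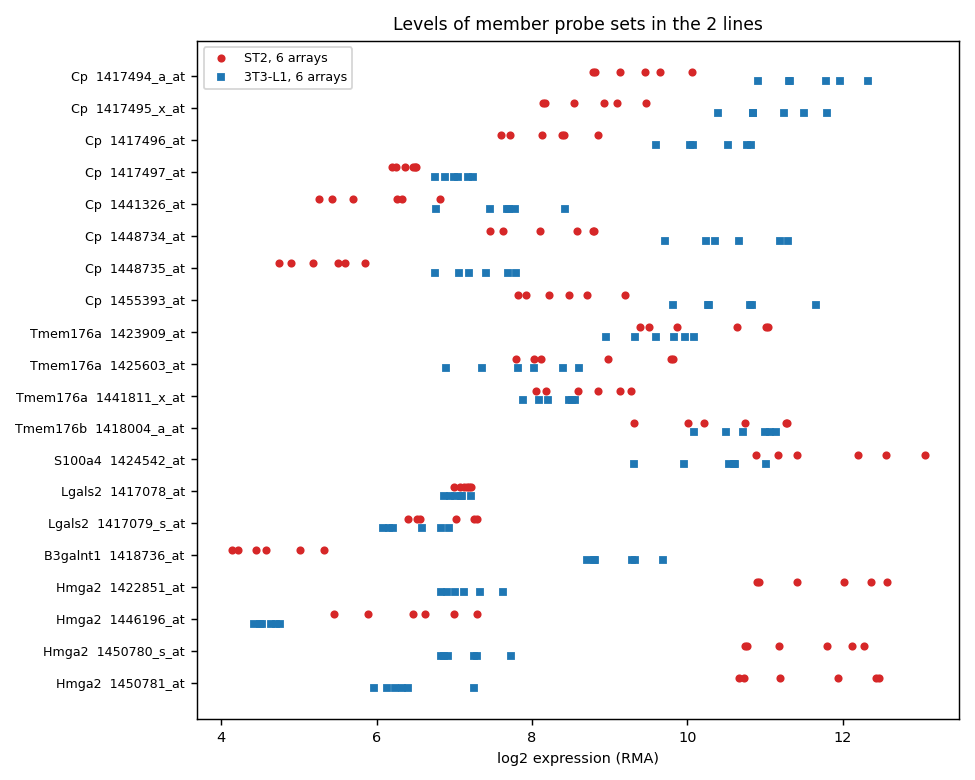
Log2 expression (RMA, x axis) of the member probe sets on the 6 ST2 arrays (circles, upper row of each pair) and the 6 3T3-L1 arrays (squares, lower row), to be compared within a probe set only. All circles lie right of all squares for the 4 Hmga2 probe sets and left of them for B3galnt1 and 7 Cp probe sets, and the other 8 probe sets overlap.

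Relatives of the 7 genes were examined in 6 lists (the probe set with the highest mean was taken for each gene), which were not used to pick the members. The lists were themselves chosen with earlier results of these data known. Of 25 genes of copper and iron handling, 18 of which varied enough to be tested, 3 fell with SRA in the moderated limma test and 0 rose, with a list median of 0.05 beside 0.06 over all 18194 genes. Steap4, a metalloreductase, fell by 0.93 (adjusted p = 0.00222), and Slc39a14, a zinc and iron importer, fell by 0.83 (adjusted p = 0.00184). Lcn2, the siderophore-binding lipocalin-2, fell by 0.79 (adjusted p = 0.0179), a call that ended without SRA replicate 2 (adjusted p = 0.139). With shSRA 0 of the 25 passed, and 3 had an unadjusted p under 0.05. With replicate number as a block, Heph, the membrane ferroxidase related to ceruloplasmin, was called lower with shSRA (-0.73, adjusted p = 0.0214, against 0.369 without the block).

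The MS4A genes form the four-span family to which TMEM176 proteins are related, and 2 of 14 varied enough to be tested. Of these Ms4a4d fell by 1.41 with SRA (adjusted p = 7.1e-05). It averaged 4.55 ± 0.15 in SRA cells and 5.96 ± 0.48 in ST2 controls, and 4.16 ± 0.03 in shSRA cells and 4.10 ± 0.10 in shControl cells (SD, n = 3 each). Of 13 genes of the S100 family and its partner S100pbp, 7 were tested and 0 passed with SRA in limma, with 2 at an unadjusted p under 0.05. The largest difference was that of S100a8, a subunit of calprotectin, at -0.86 (adjusted p = 0.0996), which passed without ST2 control replicate 2 (adjusted p = 0.0432) and with replicate number as a block.

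Of 9 galectins and related genes, 5 of them tested, Lgals9 fell by 1.13 with SRA (adjusted p = 0.00411) and Lgals4 rose by 0.67 (adjusted p = 0.0278, up to 0.117 with single arrays left out, the highest without SRA replicate 2). Of 23 genes in a list of globo-series glycolipid synthesis and of β-1,3 transferases, not all of which make glycolipids, 12 were tested and 3 fell with SRA. Ugcg, which makes glucosylceramide, fell by 0.58 (adjusted p = 0.0410), the lactosylceramide synthase B4galt6 fell by 0.74 (0.0148), and B3gnt9 fell by 0.73 (0.0147). All 3 calls ended, among other arrays, without SRA replicate 2, at adjusted p of 0.195, 0.0867 and 0.127. Of 14 genes in the list around HMGA2 (HMGB and HMGN chromatin proteins, LIN28, IGF2BP and their targets), 9 were tested, and Hmgb2 fell by 1.36 (adjusted p = 0.00127) and Hmgn3 fell by 0.67 (adjusted p = 0.0175, and 0.109 without SRA replicate 2). Across the 6 lists 1 gene rose and 10 fell with SRA, among the tested genes counted for each list above. Of all tested probe sets 2.33% rose and 5.65% fell. Without ST2 control replicate 2, 15 genes of the 6 lists passed, 14 of them lower.

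With shSRA 0 genes of the 6 lists passed in the moderated limma test, and besides the 3 counted above 1 of the S100 list and 1 of the galectins had an unadjusted p under 0.05. The difference between the 2 effects was itself tested for these relatives. Among the tested genes of the 6 lists it passed for 5, where 2.32% of all tested probe sets passed. The SRA effect minus the shSRA effect was -1.35 for Steap4 (adjusted p = 0.00519), -1.02 for Slc39a14 (0.0166), -1.47 for Ms4a4d (0.00441), -1.52 for Hmgb2 (0.0235) and 1.14 for Heph (0.0264). The Steap4 and Ms4a4d differences passed whichever array was left out, while those of Slc39a14, Hmgb2 and Heph did not, with highest adjusted p of 0.0673, 0.0791 and 0.112. Ms4a4d averaged 4.16 in shSRA and 4.10 in shControl cells, and Heph 5.13 in SRA and 4.72 in control ST2 cells. Whether these low signals are above background, so that a change could show there, was not tested.

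Markers of other states moved with the members in ST2. Of 19 mitotic genes, 18 of them tested, 18 fell with SRA (list median -1.38), where 5.65% of all tested probe sets fell. The count was also 18 without ST2 control replicate 2. The list's mean level was 6.30 to 6.95 on the SRA arrays and 7.68 to 8.42 on the ST2 control arrays. In 3T3-L1 that mean was 6.06 to 6.33 on the shSRA arrays and 5.92 to 6.03 on the shControl arrays, with no gene passing the moderated limma test, 3 higher at an unadjusted p under 0.05, and Mki67 called higher with replicate number as a block (0.70, adjusted p = 0.0220). Mki67, which was named after its values were seen, averaged 6.24 ± 0.62 with SRA and 8.04 ± 0.34 in ST2 controls. It averaged 5.75 ± 0.19 with shSRA and 5.05 ± 0.14 with shControl (SD, n = 3 each). The list median with shSRA was 0.22. The mean of this list thus had the order of groups that the members were chosen for, and its part in the result was not tested.

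Of 15 preadipocyte and fibroblast markers, 14 of them tested, 7 fell with SRA, where 5.65% of all tested probe sets fell. Their mean level was 8.56 to 8.74 on the SRA arrays and 9.24 to 9.43 on the ST2 control arrays. In 3T3-L1 the mean went the other way from the members, at 10.38 to 10.57 on the shSRA arrays and 10.62 to 10.89 on the shControl arrays, and Lum, a matrix proteoglycan, fell by 1.57 with shSRA (adjusted p = 0.0173). At an unadjusted p under 0.05 in the moderated limma test, 5 genes of this list were lower with shSRA and 0 higher. Of 17 adipocyte markers, 13 of them tested, 5 rose with SRA and 0 fell, where 2.33% of all tested probe sets rose and 5.65% fell. Their mean was 11.95 to 12.11 on the SRA arrays and 11.37 to 11.80 on the ST2 control arrays, and 12.65 to 12.76 on the shSRA arrays and 12.50 to 12.66 on the shControl arrays. With shSRA 0 adipocyte markers passed the moderated limma test, and 1 was called higher with replicate number as a block. Whether these lists bear on the members was not tested. In bulk RNA, fewer cells of a type and less RNA per cell cannot be told apart.

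Tmem176a, Tmem176b and S100a4 are also known from myeloid cells, and the macrophage and dendritic cell list had no measured gene past the test. Of its 16 listed genes, 15 had a probe set annotated to that symbol alone. The list names Cd14, which the study reported as lower in SRA ST2 cells on these same arrays. The probe set of that report is evidently not among those counted, so the counts neither show nor contest that fall. In limma 0 of its 15 genes passed with SRA and 0 with shSRA (5 tested), with 0 at an unadjusted p under 0.05 with SRA and 0 with shSRA. The mean level over the 15 genes lay between 6.07 and 6.20 on the SRA arrays, against 6.06 to 6.16 on the ST2 control arrays, and between 5.99 and 6.04 on the shSRA arrays, against 6.03 to 6.09 on the shControl arrays. RMA values do not say which of these genes were above background, and the part of such cells in the members' values was not tested.

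**Figure D5:**
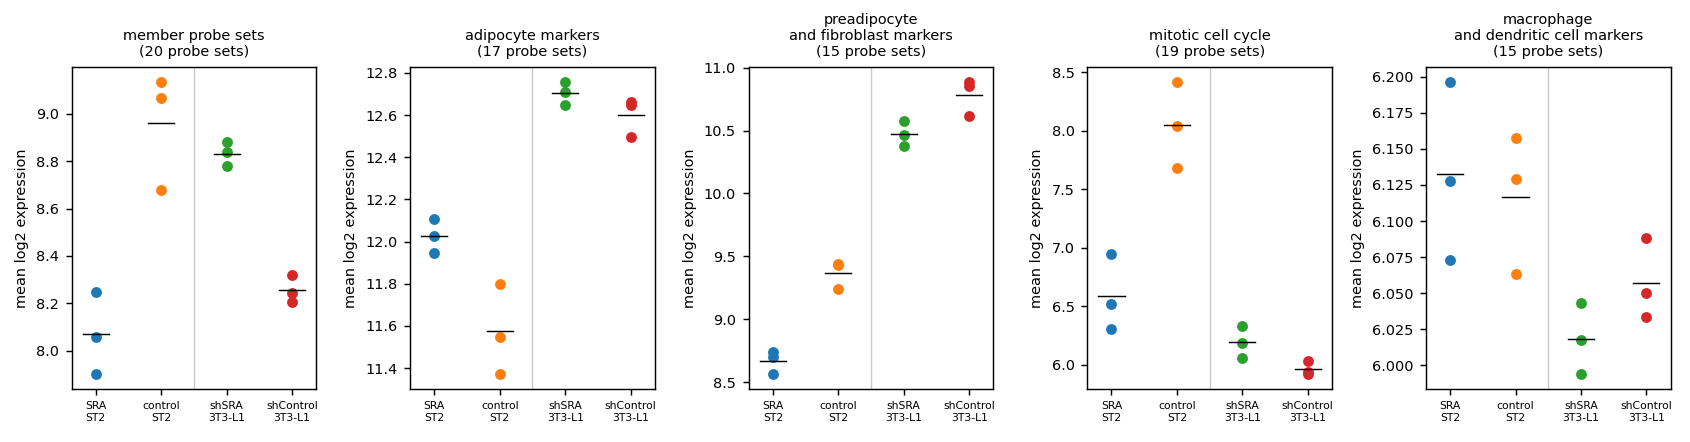
Mean log2 expression on each array over the 20 member probe sets and over 4 marker lists (1 probe set per gene), with 3 points per group and a bar for their mean. The mitotic list is lower with SRA and slightly higher with shSRA, like the members, while the fibroblast list is lower in both and the macrophage list stays between 5.99 and 6.20.

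Other genes were ranked by how near their line-centred values came to the mean profile of the 7 members over the 12 arrays, as a root mean square distance in log2 units. The nearest of 9738 genes were Rspo2 (0.15), a secreted enhancer of Wnt signalling, Cd109 (0.16), a co-receptor that limits TGF-β signalling, Trip13 (0.17), a mitotic checkpoint ATPase, Apcdd1 (0.17), a membrane inhibitor of Wnt signalling, Tubb5 (0.18), a β-tubulin, and Nudt4 (0.18), a phosphohydrolase of inositol polyphosphates. The members' own distances were 0.14 for Tmem176a, 0.17 for Tmem176b, 0.18 for B3galnt1, 0.23 for Cp and Lgals2, 0.25 for Hmga2 and 0.30 for S100a4. Apcdd1 was the neighbour with the largest shSRA difference, -0.80 with SRA and 0.84 with shSRA. Rspo2 had differences of -1.03 and 0.47, and like Hmga2 it was far higher in ST2 (by 5.69). The other neighbours were nearer the members in ST2 than in 3T3-L1. Cd109, Trip13, Nudt4 and Tubb5 had SRA differences of -0.94, -1.06, -0.98 and -1.01, but shSRA differences of only 0.37, 0.28, 0.25 and 0.18. Whether the 3T3-L1 signals of Rspo2, Cd109 and Trip13 are above background was not tested.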

How the data were processed

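RNA of 12 cultures (5 µg each) was hybridised to Affymetrix mouse arrays, 3 biological replicates in each of 4 groups taken from the sample labels. Per the study's methods, the authors made the deposited log2 values by RMA (affy and limma), which corrects background, quantile-normalizes the arrays and summarizes each probe set. RMA shrinks large differences and gives no detection call. No source used here gives their versions. The 12 deposited log2 columns were used as given. Gene names came from the platform annotation (34958 probe sets with 1 symbol, 932 with several, 9211 with none). Members and lists were chosen with earlier results of these data known.

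Models were fitted with limma 3.58.1 in R 4.3.3 to the 19068 probe sets with variance above 0.05, 1 mean per group, with moderated tests and Benjamini-Hochberg adjustment at 0.05 over all of them. Line differences averaged both groups of a line. In simulated data, 198 of 200 probe sets changed by 2 on the log2 scale were called for SRA and 199 of 200 for shSRA, among 19289 tested. There were 8 and 7 false calls. The simulated noise was independent between arrays, and a change of 2 exceeds every member difference with shSRA (0.99 at most). How often changes of the members' size would be called was not tested. Deviations of same-numbered arrays correlated at 0.59, 0.59 and 0.38 in 3T3-L1, which was taken as pairing. In ST2 they correlated at 0.04, 0.27 and 0.53, which was not. The main model left the pairing out in both lines, and the replicate block, an alternative, was fitted in both. The main model called 14 probe sets with shSRA and the block 101. All 20 member probe sets are shown. In each list of relatives up to 4 genes past the test with the largest change were named, or the largest change where none passed, and the 6 genes nearest in pattern. Named outside this rule, after their values were seen, were Heph, Lum and Mki67. The number of arrays limits the precision. Alternatives were no filter, an intensity trend, a second quantile normalization, centring on probe sets averaging at least 8, array weights, a replicate block, nested F classification, control arrays only and leaving out each array.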

Additional observations from a re-analysis of the deposited data

Results flagged for a closer look

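For 14 member probe sets every SRA array lay below the ST2 controls and every shSRA array above the shControl arrays. They were picked for this, and the difference between the 2 effects was not tested for them. The SRA effect minus the shSRA effect was -1.65, -1.70, -1.54, -1.95, -1.34 and -1.79 for the Cp probe sets 1417494_a_at, 1417495_x_at, 1417496_at, 1448734_at, 1448735_at and 1455393_at. It was -1.98, -2.54 and -1.26 for 1423909_at, 1425603_at and 1441811_x_at of Tmem176a, -1.89 for Tmem176b and -2.26 for S100a4. It was -1.33 for Lgals2 on 1417079_s_at, -1.37 for B3galnt1 and -1.72 for Hmga2 on 1450780_s_at.

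Among the relatives the effects of SRA and of shSRA differed by the limma test of that difference for Heph (1.14), Slc39a14 (-1.02), Steap4 (-1.35), Ms4a4d (-1.47) and Hmgb2 (-1.52). Line, day and vector changed together between the 2 comparisons and cannot be told apart in these differences.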

How the results depend on the processing

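The count of 18 member probe sets that differed between the lines stayed between 18 and 19 under every alternative run. The Tmem176b line difference of -0.28 was the only one to turn, to 0.67 in the control arrays alone, a description, since those arrays also picked the gene. The count of 17 member probe sets called lower with SRA was 11 to 17 with single arrays left out, the lowest without SRA replicate 1. Their median of -0.85 was -1.19 with array weights and -1.19 as a median over genes, and -0.98 to -0.74 with single arrays left out. The count of 0 called higher with shSRA was 8 with array weights, 12 with the replicate block and 13 with nested F classification, and 0 with any array left out.

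For the relatives, the 11 calls with SRA were 29 with array weights and 5 to 15 with single arrays left out (5 without SRA replicate 2, 7 without SRA replicate 1). The 0 calls with shSRA were 1 with array weights, the replicate block and nested F classification. The 5 differences between effects were 8 after a second quantile normalization, 14 with array weights, 9 with the replicate block and 2 to 9 with single arrays left out. The counts over all probe sets moved likewise, for SRA at 1522, against 7327 with array weights, 3023 with the block and 751 without SRA replicate 2, and for shSRA at 14, against 90 with array weights, 101 with the block, 90 with nested F, 6 with no filter, 6 after a second quantile normalization, 4 centred on bright probe sets and 5 without shControl replicate 3. Of the SRA calls 29.2% were higher, against 42.9% with array weights and 45.6% with the block, and 15.6% (without ST2 control replicate 2) to 53.8% (without ST2 control replicate 1) with single arrays left out. Of the shSRA calls 42.9% were higher, against 25% when arrays were centred on bright probe sets, 61.4% with the block and 14.3% (without shSRA replicate 3) to 54.5% (without ST2 control replicate 2) with single arrays left out. The array weights did not converge fully, and the cause of the other shifts was not tested.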
